A study of Mus musculus with 6 samples.

Results

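The genes described here encode the mitochondrial respiratory chain and the ATP synthase. They were taken from the deposited gene table by symbol alone: every row whose symbol begins with Nduf, Uqc, Atp5, Sdha, Sdhb, Sdhc, Sdhd, or Cox and a digit, together with Cyc1 and Cycs. The rule found 49 of the table's 6467 genes. Of these, 15 encode subunits of complex I, 4 of complex III, 11 of complex IV and 12 of complex V, and 7 encode assembly factors; no subunit of complex II was in the table, nor were Cyc1 and Cycs. The libraries were made from CD8+ T cells sorted out of tumours of MC38, a colon carcinoma line of the mouse, on C57/B6J mice labelled WT. In 3 libraries the mice had received αPD-1-IL-15-R, which by its name and the study's title joins anti-PD-1 to IL-15 in a concealed form, at 30 µg by intraperitoneal injection on days 14 and 17. In the other 3 they had received PBS. Cells were collected 48 hours after the later injection, and no library here had anti-PD-1 or IL-15 alone. The labels give no age and do not say whether a library came from 1 mouse or from several, so the p-values measure only the spread between these libraries, which may be partly technical.

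The respiratory chain passes electrons from NADH (through complex I) and succinate (through complex II) to ubiquinone, then through complex III and cytochrome c to complex IV, which reduces oxygen. Complexes I, III and IV pump protons across the inner membrane, and complex V, the ATP synthase, uses the returning protons to make ATP. Most subunits are encoded in the nucleus and a few in mitochondrial DNA. Activated T cells draw heavily on glycolysis, while memory CD8+ T cells are known for their reliance on mitochondrial respiration, and IL-15 is known as a cytokine that sustains memory cells.

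Several nuclear regulators bind the promoters of respiratory genes, among them nuclear respiratory factor 1 (NRF1), the ETS-family factor GABP and YY1. RefSeq windows on GRCm38.p6, running from 250 bases before to 50 bases after each start, were found for 41 of the 49 members by gene ID. The 7-letter ETS core CCGGAAG, on either strand, was present in the windows of 16 of these 41 genes (39.0%). It was present in 15.1% of the table genes with a window, in 21.4% of the table genes higher after αPD-1-IL-15-R and in 9.93% of all 27025 genes with a window. The NRF1 motif, GCGC followed by any base and then TGCGC, searched on both strands, was in 7 of 41 member windows (17.1%), against 8.84% of table genes and 5.19% of all genes. AAGATGGC, the core of YY1 sites, was in 4 (9.76%), against 3.72% of table genes and 3.19% of all genes. GGGCGG, the core bound by SP and KLF factors, was in 18 member windows (43.9%), against 66.5% of table genes and 38.2% of all genes. The ETS core ends in the letters AAG with which the YY1 core begins, so those matches can overlap. A match is a run of letters, not a bound site.

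To show what these promoters look like, the 150 bases before the start are given for 5 subunit genes whose stretch holds the ETS core, 1 or more for each of complexes I, III, IV and V, and for the testis-type isoform Cox6b2, whose stretch holds none of the 3 motifs. The lack is not particular to Cox6b2. The stretches of Ndufa3, Ndufa4, Uqcr10, Cox8a, Atp5l, Atp5g1, Atp5g3, Cox7a2l and Uqcc3, which are not shown, also hold none of the 3. In the longer windows counted above, Cox8a and Atp5l hold the ETS core, Atp5g3 the NRF1 motif and Ndufa3 the YY1 core. Those of Cox6b2 hold none of the 3. Capitals mark the ETS core, or its reverse complement, and in Atp5h also the NRF1 motif, in its reverse complement. All are 5′ to 3′ on the gene's own strand, from RefSeq, GRCm38.p6.
Ndufb7 (chr8:83566608-83566757, plus strand): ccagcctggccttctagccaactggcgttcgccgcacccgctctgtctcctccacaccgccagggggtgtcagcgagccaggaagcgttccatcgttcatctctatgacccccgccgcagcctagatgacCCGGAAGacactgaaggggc
Ndufs3 (chr2:90904722-90904871, minus strand): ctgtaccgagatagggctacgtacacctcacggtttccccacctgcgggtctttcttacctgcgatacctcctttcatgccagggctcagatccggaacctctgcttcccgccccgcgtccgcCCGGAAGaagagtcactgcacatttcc
Uqcrh (chr4:116075071-116075220, minus strand): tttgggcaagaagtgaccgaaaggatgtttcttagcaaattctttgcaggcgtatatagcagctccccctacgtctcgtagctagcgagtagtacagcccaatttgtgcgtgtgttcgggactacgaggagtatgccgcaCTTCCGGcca
Cox6b1 (chr7:30626115-30626264, minus strand): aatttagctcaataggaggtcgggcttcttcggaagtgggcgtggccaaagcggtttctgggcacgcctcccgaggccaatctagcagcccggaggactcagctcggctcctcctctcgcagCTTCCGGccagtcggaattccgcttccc
Atp5h (chr11:115419920-115420069, minus strand): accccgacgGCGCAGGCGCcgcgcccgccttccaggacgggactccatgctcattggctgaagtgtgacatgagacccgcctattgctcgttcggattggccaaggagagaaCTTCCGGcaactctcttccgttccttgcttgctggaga
Cox6b2 (chr7:4753095-4753244, minus strand): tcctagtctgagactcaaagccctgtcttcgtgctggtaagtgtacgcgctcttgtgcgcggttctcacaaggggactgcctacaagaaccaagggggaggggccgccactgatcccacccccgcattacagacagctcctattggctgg

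The table is itself a selection. It holds the genes with an authors' q-value under 0.05, which recomputation of their adjustment put at 6467 of 17077 tested (37.9%), 16.0% higher and 21.9% lower after αPD-1-IL-15-R. Every member had therefore already passed a test on these libraries, and for a gene outside the table no level or change is given. Reads in the table's genes ranged from 8886351 to 9403710 in the treated libraries and from 8484736 to 9248214 in the PBS libraries. Normalised read counts are the deposited estimated counts divided by the authors' size factors. The markers of the sorted cell type were present where the table holds them: all 5 of 13 listed CD8 T cell genes in the table, among them Cd8b1 and Cd3d, summed to between 71245 and 91429 normalised reads in treated libraries and between 21944 and 59475 in PBS libraries, and Cd8a and Cd3e are outside it. Markers of other cell types also had reads, in both groups.

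Respiratory chain and ATP synthase genes were higher after αPD-1-IL-15-R by small and similar amounts under the authors' scaling, apart from 3 isoform genes. Of these, 2 were lower, and Cox6b2 was higher by more, at 1.96 on the log2 scale. The members' direction is relative to the authors' scaling. Set against the T cell receptor signalling genes in the table, which were themselves higher, the members other than Cox6b2 were lower. In the authors' deposited table, of the 49 genes 47 were higher and 2, Cox6a2 and Ndufa4l2, were lower. With the authors' scaling the 48 members that passed the low-count filter had a median log2 change of 0.54, or 1.45-fold, with an interquartile range from 0.42 to 0.61, while the median over all 6251 genes fitted was -0.57. The median was positive with TMM, median-of-ratios, total-read and TPM scaling, and was -0.996 with scaling on T cell receptor signalling genes. Of 32 such genes listed, 21 were in the table, and only these entered the scaling. They had thus been selected as changed in these libraries. All 21 were themselves higher after αPD-1-IL-15-R, by a median of 1.24 on the log2 scale, so that scaling puts any gene with a smaller rise below 0. With the authors' scaling edgeR called 2 of the 21, Txk and Skap1. The normalised counts of the groups did not overlap for any member, 47 with the treated libraries above and 2 below. Over all table genes 42.1% and 57.2% did so. Separation of the groups in a single member, where given below, thus follows largely from the table's selection. In the edgeR quasi-likelihood test with Benjamini-Hochberg adjustment over 17077 genes, 22 of the 48 rose and 1 fell, against 16.5% of all fitted table genes that rose and 20.7% that fell. The remaining 25 had adjusted p-values from 0.0505 to 0.142. Calls depended on single libraries: no gene of the whole table was called by edgeR without PBS library 1, PBS library 3, treated library 2 or treated library 3, although 35 to 46 of the members and 4220.0 to 4885 of the fitted genes then had an unadjusted p under 0.05, and the members' median stayed between 0.47 and 0.56. DESeq2 with the same scaling called 47 higher and 1 lower, and limma-voom called 37 and 1. Over all fitted table genes DESeq2 called 2637 higher and 3495 lower of 6261. For limma-voom these were 1891 and 2847 of 6251.

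**Figure D1:**
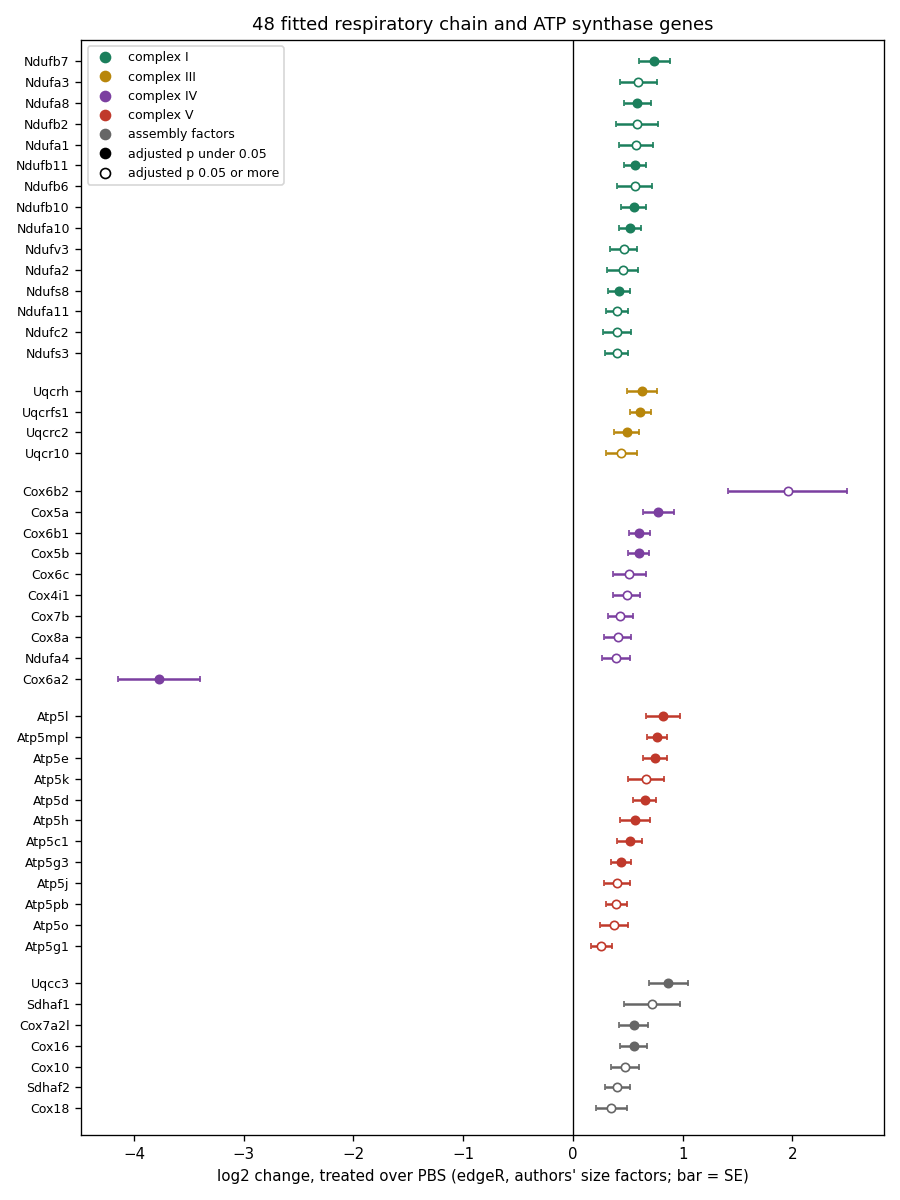
Log2 change of each fitted member, treated over PBS, on the horizontal axis with its standard error, grouped by complex down the page; filled points passed the edgeR test at an adjusted p under 0.05. Apart from Cox6b2 at 1.96 and Cox6a2 at -3.77, the points lie between 0.26 and 0.87.

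The members varied little between libraries of a group. Their median coefficient of variation was 6.2% in treated libraries and 10.04% in PBS libraries, against 15.5% and 21.3% over all fitted table genes. This comparison is partly set by the selection. A gene with a small change enters the table only where libraries of a group vary little, while genes with larger changes can enter with more spread. Against a catalogue of 86 nuclear subunit genes, 42 (48.8%) were in the table, and 40 of these were higher. Complex V had the largest share, with 12 of 17 subunit genes, all higher. Complex IV had 11 of 19, of which 9 were higher and 2 lower, complex III had 4 of 9 and complex I had 15 of 37, all higher. None of the 4 complex II subunit genes, the 13 subunits encoded in mitochondrial DNA, or Atpif1, the inhibitor of the ATP synthase, was in the table. The shares of complexes I and III, 40.5% and 44.4%, were close to the 37.9% of all tested genes in the table when both directions are counted. Those of complexes IV and V were 57.9% and 70.6%. Counting higher genes alone, 16.0% of all tested genes were in the table.

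Complex I takes electrons from NADH. Its 15 genes had a median log2 change of 0.55, from 0.40 to 0.74, and 6 rose in the edgeR test. Ndufb7 (gene ID 66916), an accessory subunit of the membrane arm that carries the ETS core shown above, had 1668, 1835 and 1867 normalised reads in treated libraries 1 to 3, against 1056, 1242 and 909.8 in PBS libraries 1 to 3. All treated libraries lay above all PBS libraries, and PBS library 2 was the nearest. It rose by 0.74 (SE 0.14) on the log2 scale (edgeR adjusted p = 0.041), the largest change in the complex.

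The other complex I genes that rose were Ndufa8, Ndufb10, Ndufb11, Ndufa10 and Ndufs8. All but Ndufs8 are accessory subunits, which surround the catalytic core. Ndufs8, a core subunit that holds iron-sulphur clusters, had 960.6, 967.4 and 960.1 normalised reads in treated libraries and 769.4, 719.6 and 667.9 in PBS libraries, 0.42 higher on the log2 scale (SE 0.10, edgeR adjusted p = 0.047). Its treated libraries were nearly identical to each other. Ndufs3, the other core subunit in the table, had 1167, 1199 and 1202 normalised reads in treated libraries, against 1004, 864.7 and 838.5 in PBS libraries. As for every member, the groups did not overlap in normalised reads, but for Ndufs3 they overlapped in TPM. The log2 change of 0.40 (SE 0.10), the smallest in the complex, had an edgeR adjusted p of 0.054. Ndufa3, the complex I gene with the highest TPM, had 1029, 1319 and 1340.4 normalised reads in treated libraries, against 733.5, 970.9 and 734.4 in PBS libraries. Treated library 1 and PBS library 2 came close to each other, and the change of 0.60 (SE 0.17) did not pass (edgeR adjusted p = 0.065). Ndufa1, Ndufa2, Ndufa11, Ndufb2, Ndufb6, Ndufc2 and Ndufv3 were likewise higher in normalised reads in every treated library. Their log2 changes, from 0.40 to 0.58, did not pass. In TPM only Ndufb6 and Ndufv3 of these had no overlap.

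Complex III moves electrons from ubiquinol to cytochrome c. Of its 4 genes, Uqcrh, Uqcrfs1 and Uqcrc2 rose. Uqcrh, the hinge subunit, had 1747, 1985 and 1827 normalised reads in treated libraries and 1183, 1379 and 1028 in PBS libraries, a rise of 0.63 (SE 0.13, edgeR adjusted p = 0.044). Uqcrfs1, the Rieske iron-sulphur protein at the catalytic centre, had 1604, 1764 and 1684 in treated libraries and 1048, 1192 and 1064 in PBS libraries, a rise of 0.61 (SE 0.10, edgeR adjusted p = 0.040). For both, every treated library was above every PBS library by more than the range within either group. Uqcrc2, a core protein of the complex, rose by 0.49 (SE 0.11, edgeR adjusted p = 0.047). Uqcr10, a small subunit, had 1098, 1093 and 1237 normalised reads in treated libraries, against 938.3, 884.2 and 702.6 in PBS libraries, and its log2 change of 0.44 (SE 0.14) did not pass (edgeR adjusted p = 0.076). Many genes of the chain have processed pseudogenes, and where the counting could split reads between near-identical copies a value is uncertain; the deposited reads of Uqcrc2, Ndufb11, Atp5pb and Cox16 were not whole numbers.

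Complex IV, cytochrome c oxidase, passes electrons to oxygen. Its widely expressed subunits were higher, and Cox5a, Cox5b and Cox6b1 rose. Cox6b1, which caps the complex on the side facing the intermembrane space, had 2203, 2455 and 2457.5 normalised reads in treated libraries and 1553, 1639.9 and 1489 in PBS libraries. The gap between the groups was wider than the range within each, and the log2 change was 0.60 (SE 0.10, edgeR adjusted p = 0.040). Cox5a, a subunit on the matrix side, rose by 0.78 (SE 0.14, edgeR adjusted p = 0.040) and Cox5b, its zinc-binding neighbour, by 0.60 (SE 0.10, edgeR adjusted p = 0.040). Cox8a, the member with the highest level of all at a mean TPM of 1565 ± 70.4 in treated and 1471 ± 94.1 in PBS libraries (SD, n = 3 each), had 5767, 6392 and 6595 normalised reads in treated libraries and 4971, 4982 and 4181 in PBS libraries. Its log2 change of 0.41 (SE 0.12) did not pass (edgeR adjusted p = 0.070), and its TPM of the 2 groups overlapped. Cox4i1, Cox6c and Cox7b were higher in normalised reads in every treated library, with log2 changes of 0.49, 0.52 and 0.43 that did not pass. In TPM the groups overlapped for Cox6c and Cox7b. Ndufa4, which was long counted with complex I and is a subunit of complex IV, had 1139, 1109.7 and 1176 normalised reads in treated libraries and 864.5, 1000.1 and 749.8 in PBS libraries, 0.39 higher on the log2 scale (SE 0.13, edgeR adjusted p = 0.082).

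The 3 tissue-restricted isoform genes of complex IV stood apart from the widely expressed subunits, and all 3 were low. Cox6a2 (gene ID 12862), the form of subunit 6a made in heart and skeletal muscle, had 5, 6 and 5 reads in treated libraries 1 to 3 and 61, 78 and 106 reads in PBS libraries 1 to 3. Every treated library was far below every PBS library. Cox6a2 fell by 3.77 (SE 0.37) on the log2 scale, or 13.7-fold, to 5.62 ± 0.85 normalised reads in treated libraries, against 78.1 ± 23.0 in PBS libraries (SD, n = 3 each; edgeR adjusted p = 0.040). It was the member with the largest change and was lower under every scaling tried, at -5.18 when scaled on T cell receptor signalling genes. Siglech, a marker of plasmacytoid dendritic cells and a gene of the dendritic cell list, had 31.6, 33.9 and 31.0 normalised reads in treated libraries, against 107.9, 437.2 and 377.8 in PBS libraries. It fell by 3.25 (SE 0.57, edgeR adjusted p = 0.040). All 11 dendritic cell markers in the table fell, and the part of dendritic cells in the Cox6a2 value was not tested.

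Ndufa4l2 (gene ID 407790), a relative of Ndufa4 that is known to be induced by hypoxia, had 3, 4 and 2 reads in treated libraries and 8, 15 and 21 in PBS libraries. The groups did not overlap, but both were low, and the gene was left out by the low-count filter. Without the filter its log2 change was -2.11 (SE 0.53, edgeR adjusted p = 0.049), and the authors' deposited table gives -2.16 with a q-value of 0.025. Within each library, where scaling plays no part, the TPM of Ndufa4l2 was 0.090%, 0.13% and 0.063% of that of Ndufa4 in treated libraries and 0.29%, 0.49% and 0.92% in PBS libraries. Of 13 fibroblast and pericyte markers found, 12 were lower and 1, Thy1, which T cells also express, was higher, and edgeR called 3 lower and none higher. Cd248, the marker with the largest fall, had 27.7, 3.28 and 5.34 normalised reads in treated libraries, against 211.3, 133.4 and 176.4 in PBS libraries. With 2 to 4 reads of Ndufa4l2 the treated libraries cannot be ranked, and the part of stromal cells in its value was not tested.

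Cox6b2 (gene ID 333182), the testis form of subunit 6b, moved the other way. It had 21, 17 and 27 reads in treated libraries and 2, 9 and 7 in PBS libraries, with no overlap. Its log2 change was 1.96 (SE 0.54), the largest positive value among the members, with an edgeR adjusted p of 0.061. Relative to Cox6b1 its TPM was 0.70%, 0.59% and 1.02% in treated libraries, against 0.12%, 0.42% and 0.41% in PBS libraries. Cox6b1 thus remained the far more abundant form in all 6 libraries.

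**Figure D2:**
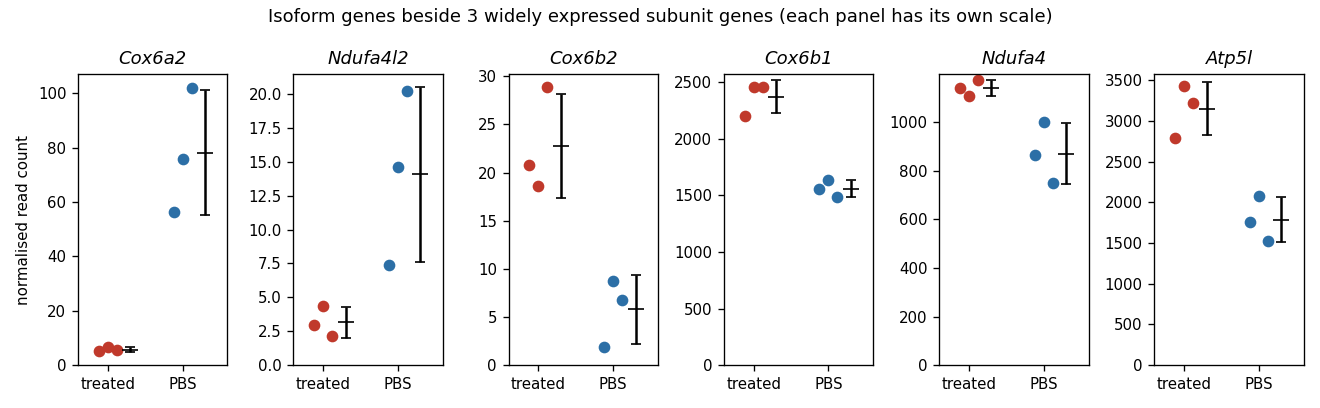
Normalised read counts of the 3 tissue-restricted isoform genes and of Cox6b1, Ndufa4 and Atp5l, by group; each panel has its own linear scale, points are libraries, and the bar beside them is the mean with the SD of 3 libraries. Cox6a2 and Ndufa4l2 are lower in all treated libraries, and the other 4 genes are higher.

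Complex V makes ATP. Its 12 genes in the table were all higher. The median of their log2 changes was 0.54, and 7 rose in the edgeR test. Atp5l (gene ID 27425), subunit g of the membrane part, had 2799, 3437 and 3219 normalised reads in treated libraries and 1754, 2075 and 1525 in PBS libraries. Each treated library was above each PBS library, with treated library 1 the lowest of its group and PBS library 2 the highest. Atp5l rose by 0.82 (SE 0.15, edgeR adjusted p = 0.041), the largest change in the complex, and also had its highest TPM. Atp5h, subunit d of the peripheral stalk, had 3099, 3434 and 3213 normalised reads in treated libraries and 2222, 2494 and 1868 in PBS libraries, a rise of 0.57 (SE 0.14, edgeR adjusted p = 0.049). Its promoter stretch, shown above, holds both an ETS core and an NRF1 motif.

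Of the central stalk, Atp5c1 (subunit gamma), Atp5d (delta) and Atp5e (epsilon) all rose, by 0.52 (SE 0.12), 0.66 (SE 0.10) and 0.75 (SE 0.11), with edgeR adjusted p-values of 0.047, 0.040 and 0.040. Atp5mpl, a small membrane subunit, rose by 0.77 (SE 0.09, edgeR adjusted p = 0.040). The c-ring, which turns as protons pass, has 3 genes for 1 mature protein, and 2 were in the table. Atp5g3 had 2176, 2102 and 2208 normalised reads in treated libraries, against 1710.5, 1545 and 1527 in PBS libraries, and rose by 0.44 (SE 0.09, edgeR adjusted p = 0.044). Atp5g1 had 2305, 2273 and 2272 in treated libraries and 2007, 1975 and 1747 in PBS libraries, a log2 change of 0.26 (SE 0.10) that did not pass (edgeR adjusted p = 0.11). Its direction depended on the unit: mean TPM was 303 ± 14.4 in treated and 315 ± 9.94 in PBS libraries (SD, n = 3 each), with overlap. Within a library, Atp5g1 TPM was 90.1%, 91.8% and 87.3% of Atp5g3 TPM in treated libraries and between 97.9% and 109% in PBS libraries. The share of Atp5g1 was thus lower in all 3 treated libraries, a difference that was not tested. Atp5pb, Atp5j and Atp5o, of the peripheral stalk, and Atp5k, of the membrane part, were higher in normalised reads in each treated library. Their log2 changes, from 0.37 to 0.67, did not pass. In TPM only Atp5k of these had no overlap.

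Assembly factors build the complexes and are not part of the finished enzymes, except that Cox7a2l is also known for joining complexes III and IV. Whether it does so in these mice was not tested. Of the 7 selected by symbol, Uqcc3, Cox7a2l and Cox16 rose. Uqcc3 (gene ID 107197), which acts in complex III assembly, had 372.6, 471.7 and 413.3 normalised reads in treated libraries and 195.6, 258.1 and 235.2 in PBS libraries. The groups were well apart, and Uqcc3 rose by 0.87 (SE 0.18, edgeR adjusted p = 0.043), the largest change among the called members that rose. Cox7a2l had 4037, 4602 and 4425 normalised reads in treated libraries and 2985, 3315 and 2602 in PBS libraries, a rise of 0.55 (SE 0.13, edgeR adjusted p = 0.048). Cox18, an inserter of a complex IV core subunit into the membrane, had 331, 356.8 and 351.4 in treated libraries and 265.7, 297.0 and 252.5 in PBS libraries, 0.35 higher on the log2 scale (SE 0.14, edgeR adjusted p = 0.14). Cox10, which makes haem O on the way to the haem A of complex IV, and the complex II factors Sdhaf1 and Sdhaf2 had positive log2 changes of 0.47, 0.72 and 0.40 that did not pass.

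Cox16 went opposite ways in counts and in TPM. It had 461.1, 516.8 and 529.3 normalised reads in treated libraries and 326.6, 359.4 and 342.1 in PBS libraries, a rise of 0.55 (SE 0.12, edgeR adjusted p = 0.046). Its TPM was 29.7, 26.2 and 28.5 in treated libraries and 33.8, 32.6 and 39.4 in PBS libraries, lower in every treated library. The reads of Cox16 behind each unit of TPM, relative to the median member of the library, were 1.47 times as many in treated as in PBS libraries, while the other 47 fitted members lay between 0.98 and 1.13. Which transcript forms of Cox16 were present was not tested.

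Of 35 further catalogue genes whose symbols lie outside the rule, 12 were in the table, 10 of them higher and 2 lower, with a median log2 change of 0.55. The edgeR test called 3. Coa6, a copper-handling factor of complex IV, rose by 1.12 (SE 0.26, edgeR adjusted p = 0.048), Cmc2, another complex IV factor, by 0.93 (SE 0.19, edgeR adjusted p = 0.043), and Ecsit, of complex I assembly, by 0.56 (SE 0.13, edgeR adjusted p = 0.047). The lower 2 were Acad9, of complex I assembly, at -0.46 (SE 0.16, edgeR adjusted p = 0.095) and Lrpprc, which stabilises mitochondrial messenger RNA, at -0.40 (SE 0.11, edgeR adjusted p = 0.061).

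Per length, the members made up 1.56%, 1.61% and 1.64% of all TPM in treated libraries 1 to 3 and 1.33%, 1.475% and 1.28% in PBS libraries 1 to 3. PBS library 2 was the highest of its group and still below each treated library. Summed TPM of the 12 complex V members was 5879 ± 19.6 in treated and 4836 ± 354 in PBS libraries (SD, n = 3 each). That of the 11 complex IV members was 5244 ± 214 in treated and 4610 ± 274 in PBS libraries (SD, n = 3 each). The 15 complex I members summed to 3217 ± 185 TPM in treated and 2743 ± 238 in PBS libraries. The groups overlapped, with treated library 1 at 3012 and PBS library 2 at 3016 TPM. Subunit genes outside the table are not in these sums. Nearly all the summed genes entered the table as higher, so higher sums in treated libraries follow largely from that selection. In TPM 26 members had treated libraries all above PBS libraries and 3 had them all below (Cox6a2, Ndufa4l2 and Cox16), against 26.4% and 57.6% of all table genes. With limma on log2(TPM + 1), the members' median was 0.21, with 8 higher and 2 lower at an adjusted p under 0.05. Over all 6467 table genes that test called 566 higher and 3543 lower.

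**Figure D3:**
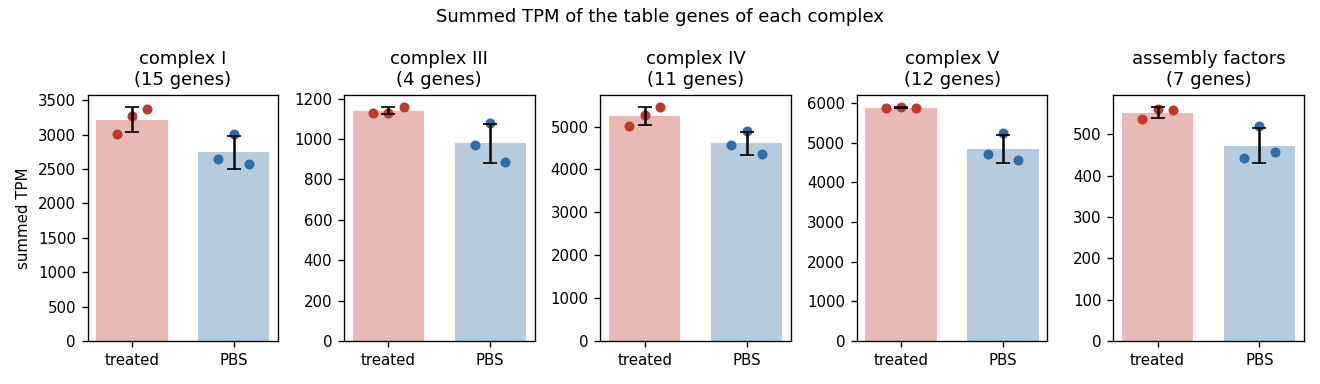
Summed TPM of the members of each complex and of the assembly factors, by group; bars start at 0 and show the mean of 3 libraries, points are libraries and error bars the SD. The complex V members are at 5879 in treated and 4836 in PBS libraries, and the complex I members overlap between the groups.

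Cell type markers differed between the groups alongside the members. The median log2 level relative to the PBS mean was 0.42, 0.59 and 0.57 for the members in treated libraries 1 to 3 and 0.05, 0.10 and -0.14 in PBS libraries 1 to 3. For the 21 T cell receptor signalling genes in the table it was 1.13, 1.49 and 1.42 in treated libraries and -0.73, 0.73 and 0.02 in PBS libraries. Between PBS libraries 2 and 1 these genes therefore differed widely, at 103799 and 37846 summed normalised reads, while the members, at 65469 and 64107, hardly did. The edgeR test called 2 of the 21 T cell receptor signalling genes higher, and none of the 5 CD8 T cell genes in the table. All 11 dendritic cell markers of 13 listed that were in the table fell, and summed to 4134 to 9530 normalised reads in treated and 31322 to 38392 in PBS libraries. Of 20 macrophage and monocyte markers, all in the table, edgeR called 14 lower and 1 higher, and they summed to between 14597 and 24777 reads in treated and between 47180.0 and 59016 in PBS libraries. Fibroblast and pericyte markers had 3 called lower of 13 in the table, and endothelial markers 4 of 7, with no gene called higher. Natural killer markers had 5 called higher of 10 (Klrb1c, Klra8, Klra1, Gzma and Eomes) and 1 lower, Tyrobp, which is also on the macrophage list. Whether these reads came from natural killer cells or from the sorted CD8+ T cells was not tested. Over all fitted table genes, edgeR called 16.5% higher and 20.7% lower. No marker in the table was at 0 in all treated libraries. In such bulk libraries fewer cells of a type and less RNA per cell cannot be told apart, and the part of cell composition in the members' change was not tested.

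**Figure D4:**
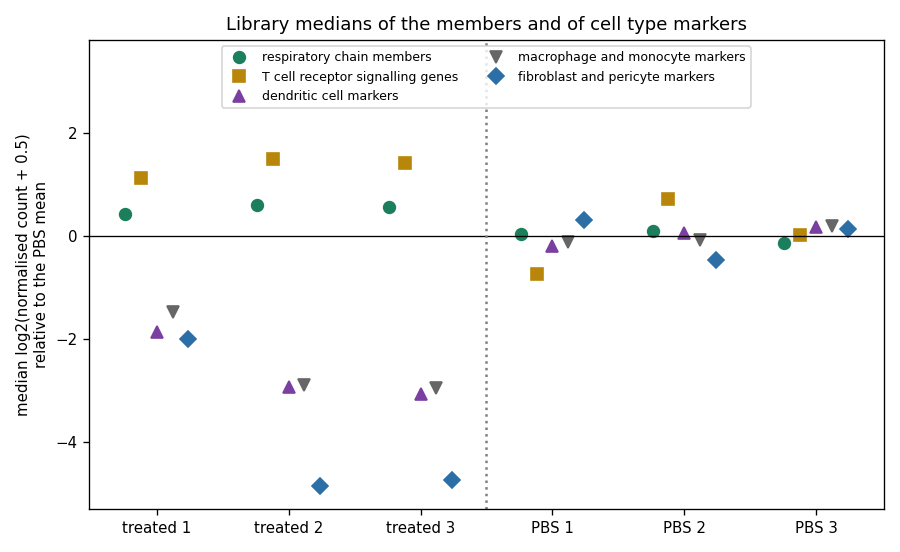
Per library, the median of log2(normalised count + 0.5) minus the mean of the PBS libraries, for the members and 4 marker lists; symbols are shifted sideways for legibility. The members lie between 0.42 and 0.59 in treated libraries and between -0.14 and 0.10 in PBS libraries, while T cell receptor signalling genes spread from -0.73 to 0.73 within PBS.

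The size of the members' change depended on what the libraries were scaled to, and the sign of its median was the same under every scaling tried but that on T cell receptor signalling genes. The members' median was 0.35 with total reads, 0.54 with the authors' factors, 0.80 with TMM and 0.96 with median-of-ratios, and -0.996 relative to T cell receptor signalling genes. Under that last scaling edgeR called no gene of the table, higher or lower. An unadjusted p under 0.05 was found for 12 of the 49 members, against 4365 of all 6320 genes fitted. Only Cox6b2 among the 49 was higher, at 0.75. A count scaling moves all genes by nearly the same amount, and the median of all fitted table genes moved with the members', from -0.57 with the authors' factors to -2.13 with T cell receptor signalling genes. These values therefore show the members' change relative to each set of genes, and are not repeated observations. The total-read, TMM and median-of-ratios factors were computed from the table's genes alone, all of which the authors' test had selected as changed. Total reads are thus reads in the table's genes and not library depth. TMM and median-of-ratios assume that most genes are unchanged, which such a selection does not meet.

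**Figure D5:**
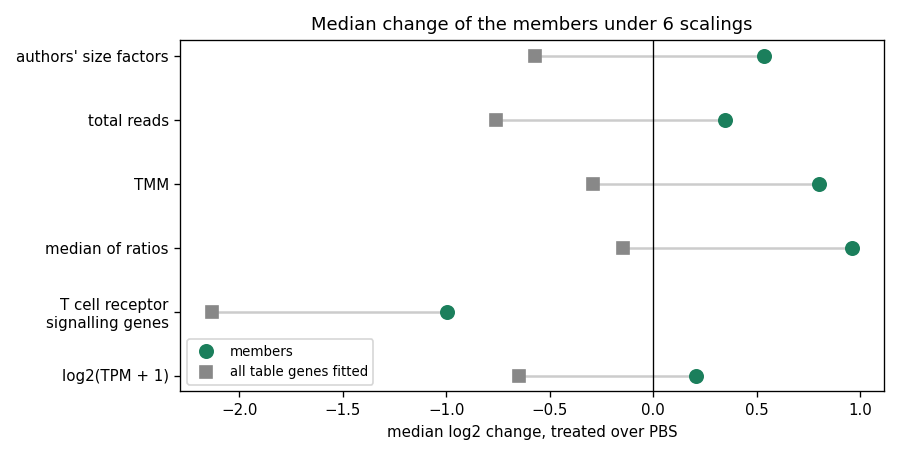
Median log2 change, treated over PBS, of the members (circles) and of all fitted table genes (squares) under 6 scalings. Each count scaling shifts both medians together, and the members are at -0.996 when scaled on T cell receptor signalling genes, which were all higher themselves.

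Neighbouring steps of mitochondrial metabolism differed in direction from list to list; over all genes the authors tested, 16.0% were in the table as higher and 21.9% as lower. Of 9 listed carriers of nucleotides, phosphate and protons 3 were present, all higher, and 2 of them, Slc25a5 and Slc25a3, rose. Slc25a5, an ADP/ATP carrier, had 9774, 9575 and 9307 normalised reads in treated libraries and 6128, 5959 and 5387 in PBS libraries, a rise of 0.71 (SE 0.10, edgeR adjusted p = 0.040), and Ucp2, an uncoupling protein, stood at 0.81 (SE 0.25, edgeR adjusted p = 0.074). Of 18 genes of the tricarboxylic acid cycle 5 were present, 3 higher and 2 lower. Only Suclg1, of succinyl-CoA synthetase, passed, with a rise of 0.49 (SE 0.11, edgeR adjusted p = 0.048), and Idh2 was lowest at -2.18 (SE 0.67, edgeR adjusted p = 0.074). Ubiquinone synthesis had 1 higher and 3 lower of 13 listed. Coq8a fell by 1.32 (SE 0.26, edgeR adjusted p = 0.042), Coq10b fell too, and Coq8b stood at 0.35 (SE 0.13, edgeR adjusted p = 0.11). Of 8 enzymes that feed electrons past complexes I and II 4 were present, 1 higher and 3 lower. Etfb, of the electron transfer flavoprotein of fatty acid oxidation, rose by 0.95 (SE 0.16, edgeR adjusted p = 0.040), Sqor fell, and Chdh stood at -2.54 (SE 0.64, edgeR adjusted p = 0.053).

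Of 18 genes for iron-sulphur clusters and haem, 8 were present, 6 higher and 2 lower, and Hscb, a cochaperone of cluster transfer, rose by 1.23 (SE 0.24, edgeR adjusted p = 0.042), while Hspa9 stood at -0.58 (SE 0.21, edgeR adjusted p = 0.11). Cristae genes had 3 higher and 2 lower of 14, with Micos10 up by 0.57 (SE 0.13, edgeR adjusted p = 0.047) and Chchd6 at -1.30 (SE 0.48, edgeR adjusted p = 0.11). Genes that remove peroxide and superoxide had 2 higher and 1 lower of 10, where Gpx1 fell by 0.97 (SE 0.20, edgeR adjusted p = 0.044) and Glrx2, a mitochondrial glutaredoxin, stood at 0.34 (SE 0.14, edgeR adjusted p = 0.16). Only Twnk, the mitochondrial DNA helicase, was present among 14 upkeep and transcription genes, at -0.51 (SE 0.19, edgeR adjusted p = 0.10). Of 19 nuclear regulators 9 were present, 4 higher and 5 lower. Sirt3, a mitochondrial deacetylase, rose by 0.99 (SE 0.19, edgeR adjusted p = 0.041), and Ppard, a nuclear receptor of fatty acid metabolism, fell by 0.91 (SE 0.18, edgeR adjusted p = 0.043). Prkaa2, a catalytic subunit of AMP-activated kinase, stood at -2.65 (SE 1.01, edgeR adjusted p = 0.12). Esrrg was too low to be fitted, and the authors' deposited table gives it -3.58. Yy1, Gabpb2 and Esrra stood at 0.39, 0.43 and 0.57 and did not pass, and Nrf1, Gabpa and Ppargc1a were outside the table.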

How the data were processed

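RNA-seq of 6 libraries, 3 treated and 3 PBS, was available as 1 gene table. The authors deposited each gene's estimated counts of reads (estimated count, not scaled), TPM, FPKM and log10(TPM + 1) per library, and their own log2 change, p-value and q-value, per the file headers; HISAT2 and RSEM are named in the submitters' processing notes, and the genome build and test are not given in the sources used here. FPKM and log10 columns, as deposited, entered no result.

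The number of genes behind the authors' q-values (17077) and their size factors (1.01, 0.91 and 0.94 in treated, 1.08, 1.03 and 1.04 in PBS libraries) were recovered from the deposited p-values and log2 changes; 3105 genes, each over 200 reads in all 6 libraries, gave a median residual of 8.7e-05. Estimated counts, rounded to integers, were fitted for all table rows with edgeR 4.0.16 in R 4.3.3 (filterByExpr, minimum count 10, robust quasi-likelihood, group as the only term), adjusted by Benjamini-Hochberg over 17077 genes and called under 0.05. An SE is the log2 change divided by the square root of F. The fit was tested on simulated counts. Alternatives used DESeq2 1.42.0, limma 3.58.1, other scalings computed from the table's genes alone, TPM with pseudocounts of 1 and 0.1, and single libraries left out. Library medians use a pseudocount of 0.5.

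Members and lists were chosen with earlier results of these data known. Genes given library by library are, per complex and for the assembly factors, the 2 of highest TPM and those of largest and smallest change, all isoform genes and all lower members. For other lists the largest rise and fall are given by their log2 change, mostly without library values, and marker lists mostly by counts and sums. Uqcrfs1, Ndufs8, Cox16, Siglech, Slc25a5 and further genes of lists were added after their values were seen. Same-numbered libraries were not paired. No interval for counting error is given, because replicate libraries carry the spread.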

Additional observations from a re-analysis of the deposited data

How the results depend on the processing

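Both the counts of calls and the size of the changes depended on the processing. The members called higher numbered 22, and were 45 with TMM, 43 with median-of-ratios, 9 with total reads, 0 with T cell receptor signalling gene scaling, 47 with DESeq2, 37 with limma-voom, 8 with limma on TPM (either pseudocount), and 46 when adjusted over the fitted table genes; without 1 library they ran from 0 to 26. Members called lower numbered 1, and were 2 without a filter on low counts and with limma on TPM, 0 with T cell receptor signalling gene scaling, and 0 to 1 without 1 library. Genes called over the whole table numbered 2328, and were 3944 with median-of-ratios, 0 with T cell receptor signalling gene scaling, 6132 with DESeq2, 4738 with limma-voom, 4109 and 4060.0 with limma on log2(TPM + 1) and log2(TPM + 0.1), 6114 when adjusted over the fitted table genes, and 0 to 4549 without 1 library. Calls of the table were 44.3% higher with the authors' scaling, 62.8% with TMM, 57.3% with median-of-ratios, 16.9% with total reads and 13.8% with log2(TPM + 1). The median of all fitted genes shifted by 0.28 with TMM, 0.43 with median-of-ratios, -0.19 with total reads and -1.56 with T cell receptor signalling gene scaling.

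The members' median log2 change of 0.54 was 0.80 with TMM, 0.96 with median-of-ratios, 0.35 with total reads, 0.21 with limma on log2(TPM + 1) and with log2(TPM + 0.1), and 0.47 to 0.60 without 1 library. Among these settings it reversed with T cell receptor signalling gene scaling alone, to -0.996. The 21 genes behind that scaling were all higher themselves, so a reversal of any gene with a smaller rise follows from its construction; the named genes stood at -1.24 (Atp5g1), -1.08 (Atp5g3, Ndufa4 and Uqcr10), -0.92 (Atp5h), -0.66 (Atp5l), -1.13 (Cox18), -0.89 (Cox6b1), -0.93 (Cox7a2l), -1.10 (Cox8a), -0.86 (Ndufa3), -0.73 (Ndufb7), -1.14 (Ndufs3), -0.57 (Uqcc3) and -0.84 (Uqcrh). Atp5g1 also reversed with TPM, to -0.0575 with log2(TPM + 1) and -0.0577 with log2(TPM + 0.1). With the authors' scaling Atp5g1 had the smallest positive log2 change of the members, at 0.26. Its reads behind each unit of TPM, treated over PBS, lay within the range of 0.98 to 1.13 of fitted members other than Cox16. The reversal of Atp5g1 thus went with the lower members' median with TPM, 0.21 against 0.54. The cause of that shift was not tested.

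Libraries with the same number are not known to share an animal or batch. Their deviations from the group means correlated at 0.62, 0.66 and -0.28 over 6251 genes for numbers 1, 2 and 3, so the numbers were not taken as pairs. With a replicate block edgeR called 24 members higher and 1 lower, and 4330.0 genes in all; treated library 3 correlated best with PBS library 2. No member with a positive log2 change under 0.42 was called.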

Other observations

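The authors' pathway annotation for oxidative phosphorylation also holds 12 table genes outside the symbol rule, 11 of the proton pump that acidifies lysosomes and endosomes (V-ATPase) or its accessory subunit, and Lhpp, a phosphatase. Their median log2 change was -0.33, with 4 higher and 8 lower, and edgeR called 1 higher and 4 lower. Atp6v0a1, a membrane subunit, had 339.95, 239.7 and 193.3 normalised reads in treated libraries and 725.2, 558.0 and 757.5 in PBS libraries, and fell by 1.40 (SE 0.26, edgeR adjusted p = 0.041). Atp6v0a2, another form of the same subunit, had 2402, 2561 and 2335 in treated libraries and 1093, 1839.5 and 1282 in PBS libraries, a difference of 0.79 (SE 0.21) that did not pass (edgeR adjusted p = 0.056). Atp6v1b1 fell by 2.62 (SE 0.47, edgeR adjusted p = 0.040), Atp6v0c fell by 0.53, Lhpp fell by 1.41, and Atp6v0d1 rose by 0.38 (SE 0.09, edgeR adjusted p = 0.047). Macrophage and dendritic cell markers, given above, were lower in the same libraries, and their part in these values was not tested.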
